A study of Zea mays with 6 samples.

Results

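The phenylalanine ammonia-lyase (PAL) genes of maize were followed in leaf RNA from plants with and without a transgene. They were chosen by identifier, as 8 genes of the 44351 listed in each library: Zm00001d017274, Zm00001d017275, Zm00001d017276, Zm00001d017279, Zm00001d003015, Zm00001d003016, Zm00001d033286 and Zm00001d051161. That these are PAL genes comes from the list of identifiers used here. Neither the files nor the reference table pairs any of the 8 with a name, so their membership of the family and their sequences were not analysed here. By identifier number, 4 of the genes form a run (Zm00001d017274 to Zm00001d017279), 2 form a pair (Zm00001d003015 and Zm00001d003016) and 2 stand alone (Zm00001d033286 and Zm00001d051161). This was used to set genes that may be tandem copies against dispersed ones; the files give no positions.

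PAL removes the amino group of phenylalanine and releases cinnamic acid, the entry step from primary metabolism into phenylpropanoids. Lignin, flavonoids, the hydroxycinnamic acids bound in grass cell walls and part of salicylic acid derive from that step. PAL is encoded by a small gene family in plants, and some grass members also accept tyrosine. In leaves much of the flux goes to the lignified walls of veins and supporting tissue.

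All 6 libraries came from leaf tissue of the maize inbred KN5585, which is commonly transformed. The 3 control libraries came from non-transgenic KN5585 plants, with normal as their treatment label. The other 3 came from a transgenic strain in the same background; the series title gives ZmSUS1, a sucrose synthase gene, as the overexpressed gene. All carry a time point of 3 days after drought in the labels and 5 days in the series text. Whether the control plants were also under drought thus rests on the time point and that text. If the control plants alone were watered, transgene and drought cannot be told apart in any comparison here. The sources used here do not name the promoter of the transgene, the number of transformation events or the plant age. Whether the libraries of a group came from separate plants is not stated beyond the words biological replicates, so p-values cover the spread among these libraries alone, which may be technical.

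Levels are FPKM, fragment numbers per length of gene, scaled to the mapped fragments of the library, which allow genes to be compared per length. Total FPKM was 684047 to 689548 in control leaves and 829541 to 831082 in transgenic leaves, and read numbers per library are unknown. Over the 22944 genes tested, the median difference on the log2(FPKM + 1) scale was -0.56, transgenic minus control. The summed level and the log2 differences and calls of the tested PAL genes are therefore also given after median-of-ratios scaling, which brings that median to -0.02. Shares of all tested genes whose levels did not overlap, and positions among genes of like level, are given as deposited only. The identity of the tissue could not be checked against leaf genes, since the identifiers carry no names.

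The summed PAL level was lower in the transgenic leaves. The total level of the 8 genes was 153.7, 148.7 and 146.7 FPKM in the control libraries and 31.6, 31.5 and 31.8 FPKM in the transgenic libraries. Every transgenic library lay below every control library, with a mean of 149.7 ± 3.6 against 31.6 ± 0.2 FPKM (SD, n = 3 each). The control mean was 4.74 times the transgenic mean as deposited, 2.95 times after median-of-ratios scaling and 5.74 times when each library was scaled to the same total FPKM. As a sum over chosen genes it was given no test. In bulk leaf RNA, fewer cells of a type and less RNA per cell cannot be told apart.

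**Figure D1:**
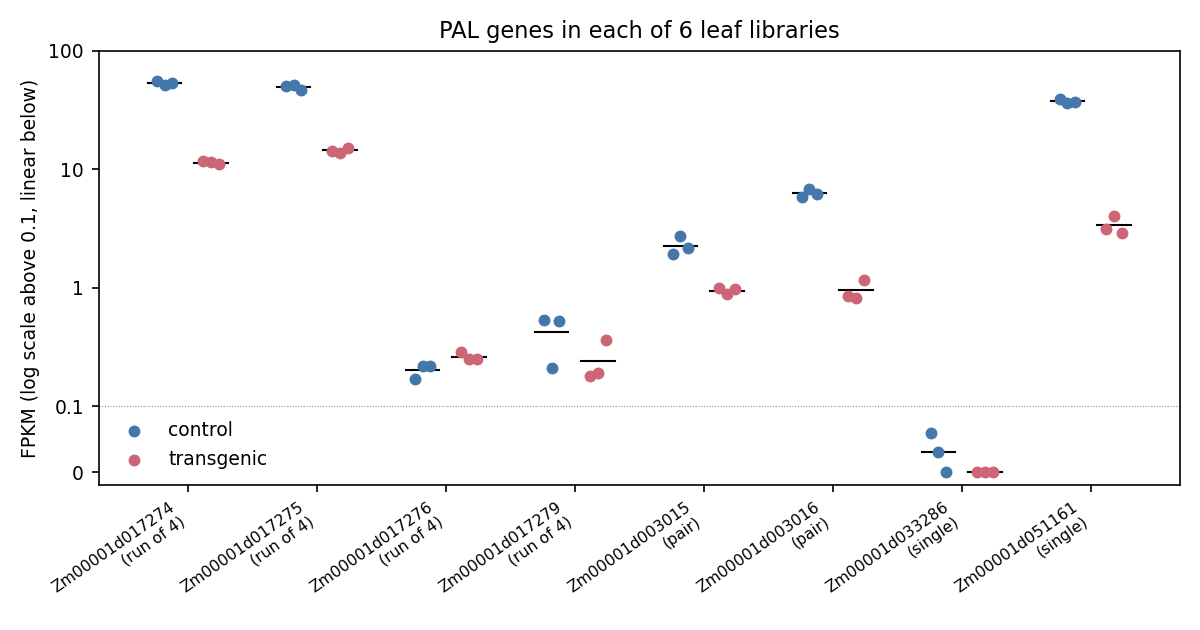
FPKM of each PAL gene in the 3 control and 3 transgenic libraries (points) with the group mean (black line); the vertical axis is logarithmic above 0.1 FPKM and linear below. For Zm00001d017274, Zm00001d017275, Zm00001d003015, Zm00001d003016 and Zm00001d051161 the transgenic points all lie below the control points, and the remaining genes stay under 1 FPKM in every library.

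The genes fell into 3 classes of level in control leaves. Zm00001d017274, Zm00001d017275 and Zm00001d051161 held 93.8% ± 0.6 of the summed PAL level in control leaves and 92.4% ± 0.9 in transgenic leaves (SD, n = 3 each). Zm00001d003016 and Zm00001d003015 lay between 0.82 and 6.80 FPKM over all libraries. In transgenic leaves Zm00001d051161, at 2.92 to 4.06 FPKM, lay within that range. Zm00001d017276, Zm00001d017279 and Zm00001d033286 stayed at or below 0.54 FPKM in every library. Of the 8 genes, 5 reached the mean of 0.5 FPKM over all libraries that was required for testing. All 5 were lower past the threshold (limma, Benjamini-Hochberg adjusted p of 0.05), and 0 were higher. Of all tested genes 67.7% were called lower and 16.3% higher, so a count of 5 of 5 is read against a background in which most genes were lower. After scaling, the 5 genes were again all lower past the threshold, where the background was 36.9% lower and 36.3% higher. The median log2 difference of the 5 genes was -1.91, or -1.44 after scaling.

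Zm00001d017274 was the most abundant PAL gene of the control leaves. Its level was 55.73, 51.57 and 53.52 FPKM in control leaves, against 11.68, 11.42 and 11.06 FPKM in transgenic leaves. The groups did not overlap; of all tested genes, 67.9% had every transgenic value below every control value. The means were 53.6 ± 2.1 and 11.4 ± 0.3 FPKM (SD, n = 3 each). The log2 difference was -2.14 ± 0.04 (SE, limma adjusted p = 1.2e-09), or -1.49 ± 0.04 after scaling (limma adjusted p = 9.1e-09). Among all genes of a library, Zm00001d017274 ranked between 2111 and 2309 in control leaves and between 7123 and 7482 in transgenic leaves, counted from the highest FPKM. Its difference was as low or lower in 2.70% of tested genes, and in 3.24% after scaling.

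Zm00001d017275, whose identifier follows directly, stood close to it in the control leaves, at 50.48, 51.15 and 46.91 FPKM. In transgenic leaves its values were 14.39, 13.83 and 15.09 FPKM, the highest of the PAL genes in each of these libraries. The log2 difference was -1.71 ± 0.05 (SE, limma adjusted p = 8.5e-09), or -1.05 ± 0.05 after scaling (limma adjusted p = 2.3e-07). The order of these neighbours in level thus differed between the groups. In each control library Zm00001d017274 was the higher, although its lowest control value (51.57 FPKM) barely exceeded the highest of Zm00001d017275 (51.15 FPKM). In each transgenic library Zm00001d017275 was the higher, and the values of the genes lay apart there. Their FPKM ratio, Zm00001d017275 over Zm00001d017274, was 0.91, 0.99 and 0.88 in control leaves, against 1.23, 1.21 and 1.36 in transgenic leaves. Reads shared by near-identical copies could be split between such genes by the authors' counting, for which the sources used here give no program; 0 of the 8 genes had the same 6 values as another gene.

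Zm00001d051161, with a single identifier, showed the largest difference of the 5 tested genes, both as deposited and after scaling. It stood at 38.95, 36.02 and 37.12 FPKM in control leaves, against 3.16, 4.06 and 2.92 FPKM in transgenic leaves. The lowest control value was thus well above the highest transgenic value, and the control mean was 11.1 times the transgenic mean, or 6.89 times after scaling. The log2 difference was -3.14 ± 0.09 (SE, limma adjusted p = 1.1e-08), or -2.54 ± 0.09 after scaling (limma adjusted p = 4.3e-08). A difference as low or lower was found in 159 of the 22944 tested genes, and in 168 after scaling. Of tested genes with a mean between 5 and 50 FPKM, 0.85% were as low or lower as deposited, against 3.26% for Zm00001d017274 and 6.45% for Zm00001d017275. The rank of Zm00001d051161 among all genes of a library went from between 3282 and 3597 in the control to between 13326 and 14934 in the transgenic libraries. Its coefficient of variation was 3.96% in the control libraries and 17.8% in the transgenic libraries, or 5.58% there without transgenic replicate 2, the highest of the 3. The median gene of like level had 3.88% in the control (10 to 100 FPKM) and 8.12% in the transgenic libraries (2 to 10 FPKM). The coefficients of Zm00001d017274 (3.88% and 2.73%) and Zm00001d017275 (4.60% and 4.37%), in the same order of groups, stayed near those of genes of like level.

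Both genes of the pair were low and both fell, and their level relative to each other differed between the groups. Zm00001d003016 was at 5.88, 6.80 and 6.22 FPKM in control leaves, against 0.86, 0.82 and 1.17 FPKM in transgenic leaves, without overlap. Its log2 difference was -1.91 ± 0.10 (SE, limma adjusted p = 3.0e-07), or -1.44 ± 0.11 after scaling (limma adjusted p = 3.6e-06). Zm00001d003015 was at 1.92, 2.73 and 2.17 FPKM in control leaves, against 0.99, 0.88 and 0.97 FPKM in transgenic leaves, again without overlap. Its difference was the smallest of the 5, at -0.74 ± 0.11 (SE, limma adjusted p = 0.00030). The median of all tested genes was -0.56, and 38.7% of them were as low or lower than Zm00001d003015. With a pseudocount of 0.1 its difference was -1.17, against a median of -0.69, and the FPKM mean of the control was 2.40 times that of the transgenic libraries. After scaling it was -0.34 ± 0.11 (limma adjusted p = 0.025), and 30.1% of tested genes were as low or lower. The FPKM ratio of Zm00001d003016 to Zm00001d003015 was 3.06, 2.49 and 2.87 in control leaves, against 0.87, 0.93 and 1.21 in transgenic leaves. In the control leaves Zm00001d003016 was thus the higher in every library, whereas in the transgenic leaves the means were 0.950 ± 0.192 and 0.947 ± 0.059 FPKM (SD, n = 3 each), a gap smaller than the spread.

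**Figure D2:**
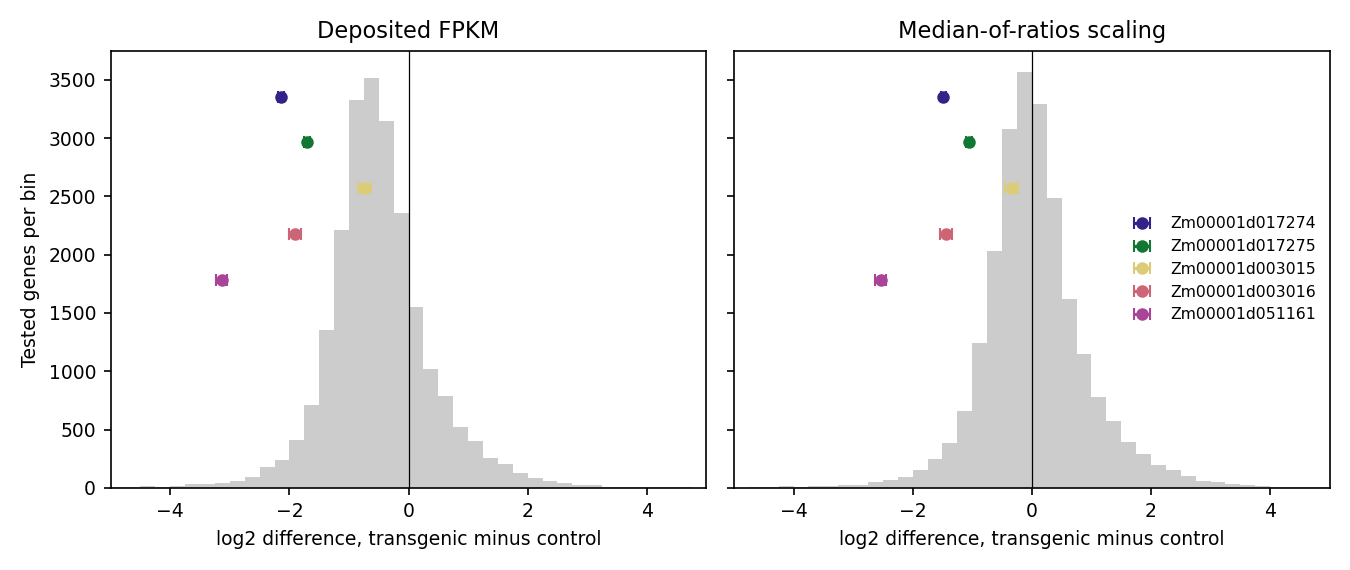
Log2 difference, transgenic minus control, of the 5 tested PAL genes (points with SE bars, drawn at arbitrary heights) over the number of all tested genes in bins of 0.25 (grey bars), as deposited and after median-of-ratios scaling; 25 and 24 tested genes lie beyond the axis. Zm00001d051161 is farthest to the left at -3.14 and -2.54, and Zm00001d003015 lies within the bulk of genes at -0.74 and -0.34.

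The 3 remaining genes lay below the mean of 0.5 FPKM required for testing, and Zm00001d033286 was also near the limit of the 2-decimal values. Zm00001d017276 was at 0.17, 0.22 and 0.22 FPKM in control leaves, against 0.29, 0.25 and 0.25 FPKM in transgenic leaves. It was the only one of the 8 with every transgenic value above every control value; of all tested genes, 16.6% lay that way. Fitted without the minimum, it had a log2 difference of 0.07 ± 0.05 (SE, limma adjusted p = 0.25). Zm00001d017279 was at 0.54, 0.21 and 0.53 FPKM in control leaves, against 0.18, 0.19 and 0.36 FPKM in transgenic leaves, with overlapping groups. Fitted in the same way, its log2 difference was -0.19 ± 0.11 (SE, limma adjusted p = 0.19). Zm00001d033286 was listed at 0.06, 0.03 and 0 FPKM in control leaves and at 0 in all 3 transgenic libraries, so no fold is given. At these levels a value may rest on few fragments, and an adjusted p above the threshold does not show that the groups were alike.

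The tested PAL genes changed to different extents. To ask this of each gene in a way that scaling between libraries cannot alter, apart from the pseudocount, the level of Zm00001d017274 was subtracted on the log2(FPKM + 1) scale in every library and the fit across all genes was repeated. Relative to Zm00001d017274, Zm00001d051161 fell further, with a relative log2 difference of -0.999 ± 0.090 (SE, limma adjusted p = 9.9e-07), and 1.83% of all tested genes were called in that direction. Zm00001d017275 fell less, with a relative difference of 0.43 ± 0.07 (SE, limma adjusted p = 9.0e-05), as did Zm00001d003015 at 1.40 ± 0.14 (limma adjusted p = 1.8e-06). Of all tested genes 96.0% were called in that direction, since the reference gene itself was far below the median. The relative difference of Zm00001d003015 was smaller with a pseudocount of 0.1, at 1.06 (limma adjusted p = 0.00057). For Zm00001d003016 the relative difference was 0.23, with a 95% interval from -0.04 to 0.50 (limma adjusted p = 0.087), and it was 0.31 without control replicate 2 (limma adjusted p = 0.049). With a pseudocount of 0.1 it was -0.40, so its sign depended on the pseudocount. Without a pseudocount, the FPKM ratio of Zm00001d003016 to Zm00001d017274 was 0.118 ± 0.013 in control leaves and 0.084 ± 0.019 in transgenic leaves (SD, n = 3 each). That ratio was lower on average in transgenic leaves, but the groups overlapped. The data thus do not set whether this low gene fell more or less than Zm00001d017274.

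Ratios of FPKM, which need no pseudocount, were also compared for the 10 pairs of the 5 genes. The groups did not overlap in 9 pairs; of the ratios of all other tested genes to each of the 5 genes, 86.8% did not overlap either, so the count by itself does not set the pairs apart. For each of these 9 the exact permutation test gave a two-sided p of 0.1, the smallest that 3 against 3 libraries allow, and an adjusted p of 0.11 over the 10 pairs. The overlapping pair was Zm00001d003016 and Zm00001d017274 (exact permutation p = 0.2). The ratio of Zm00001d051161 to Zm00001d017274 was 0.70, 0.70 and 0.69 in control leaves, against 0.27, 0.36 and 0.26 in transgenic leaves. The SD of this ratio was 0.003 in control leaves and 0.051 in transgenic leaves (n = 3 each), or 0.005 there without transgenic replicate 2. That library had the highest of the 3 transgenic ratios, and leaving out the farthest of 3 values always lowers the SD.

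**Figure D3:**
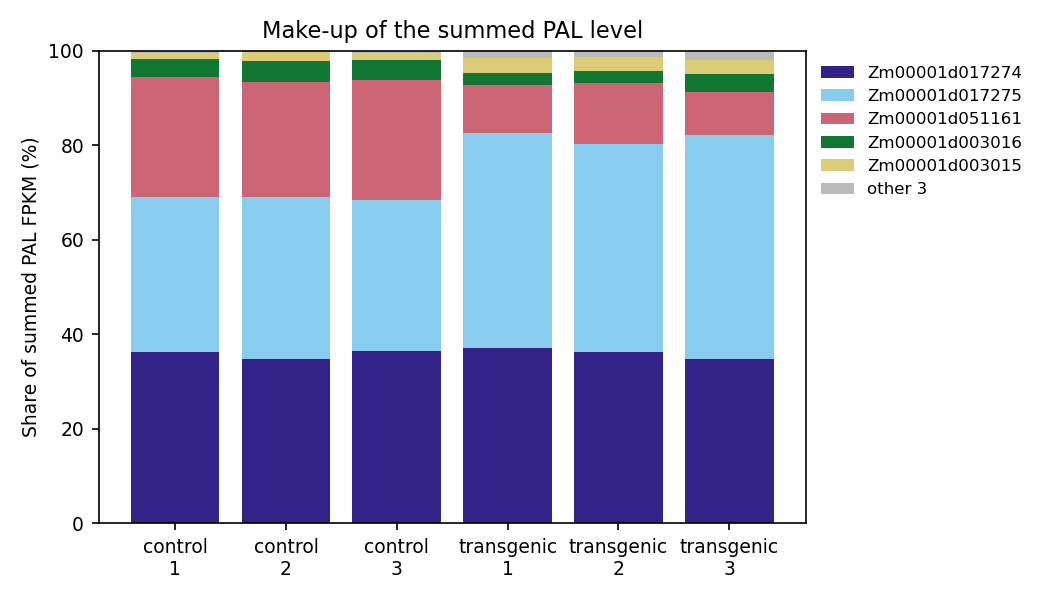
Share of the summed PAL FPKM held by each gene in each library (stacked bars, percent); the grey segment joins Zm00001d017276, Zm00001d017279 and Zm00001d033286. The share of Zm00001d051161 is 24.2% to 25.3% in control leaves and 9.18% to 12.9% in transgenic leaves, while that of Zm00001d017275 is 32.0% to 34.4% and 44.0% to 47.4%.

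Genes with adjacent identifiers made up more of the PAL level in the transgenic leaves. The 6 genes of the run and the pair together held 74.6%, 75.8% and 74.7% of the summed level in the control libraries and 90.0%, 87.1% and 90.8% in the transgenic libraries. The groups did not overlap, and the means were 75.0% ± 0.6 and 89.3% ± 2.0 (SD, n = 3 each), a difference of 14.3 percentage points. The difference was 22.2 points when Zm00001d017274, the most abundant in control leaves, was left out. The control mean of the run of 4 was 3.94 times the transgenic mean (103.8 ± 2.9 and 26.3 ± 0.6 FPKM). That of the pair was 4.52 times (8.57 ± 0.88 and 1.90 ± 0.22 FPKM) and that of the single genes 11.1 times (37.4 ± 1.5 and 3.38 ± 0.60 FPKM; SD, n = 3 each). After median-of-ratios scaling these ratios were 2.45, 2.81 and 6.89; the shares do not depend on scaling.

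This contrast rests on few genes. Of the single genes Zm00001d051161 carried nearly all, and of the run of 4 Zm00001d017274 and Zm00001d017275 did, while Zm00001d017276 and Zm00001d017279 each held at most 1.13% of the summed level in any library. The share of Zm00001d017274 alone, 35.8% ± 1.0 in control leaves and 36.0% ± 1.2 in transgenic leaves (SD, n = 3 each), differed by less than the spread. The rise in the share of adjacent genes was thus mostly a rise in the share of Zm00001d017275, from 33.1% ± 1.2 to 45.7% ± 1.7. The level of that gene was itself lower in transgenic leaves. Adjacent genes hold what the single genes leave of the whole, and the share of Zm00001d051161 fell from 25.0% ± 0.6 to 10.7% ± 2.0. Zm00001d003015 went from 1.52% ± 0.30 to 2.99% ± 0.18, and Zm00001d003016 from 4.21% ± 0.37 to 3.00% ± 0.59. With 1 expressed single gene, arrangement and the gene itself cannot be told apart.

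Within the run, the identifiers between its members, Zm00001d017277 and Zm00001d017278, were listed at 0 in all 6 libraries, although both carry numbers between those of PAL genes. The identifiers up to 5 numbers from a PAL gene on either side came to 42, of which 36 are listed and 17 could be tested. Among these 17 neighbours 11 were lower, 5 were higher and 1 was not called (limma), where 67.7% and 16.3% of all tested genes were lower and higher, with a median log2 difference of -0.66 against -0.56 for all tested genes. Beside the run the 5 tested neighbours ranged from -2.35 to 0.88, and beside the pair from -2.25 to 0.83. After scaling 8 of the 17 were lower and 7 higher, against 36.9% and 36.3% of all tested genes. The calls of the neighbours were thus in both directions. After scaling their median log2 difference was -0.25, against -0.02 for all tested genes. Their shares were not tested against those of all genes.

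**Figure D4:**
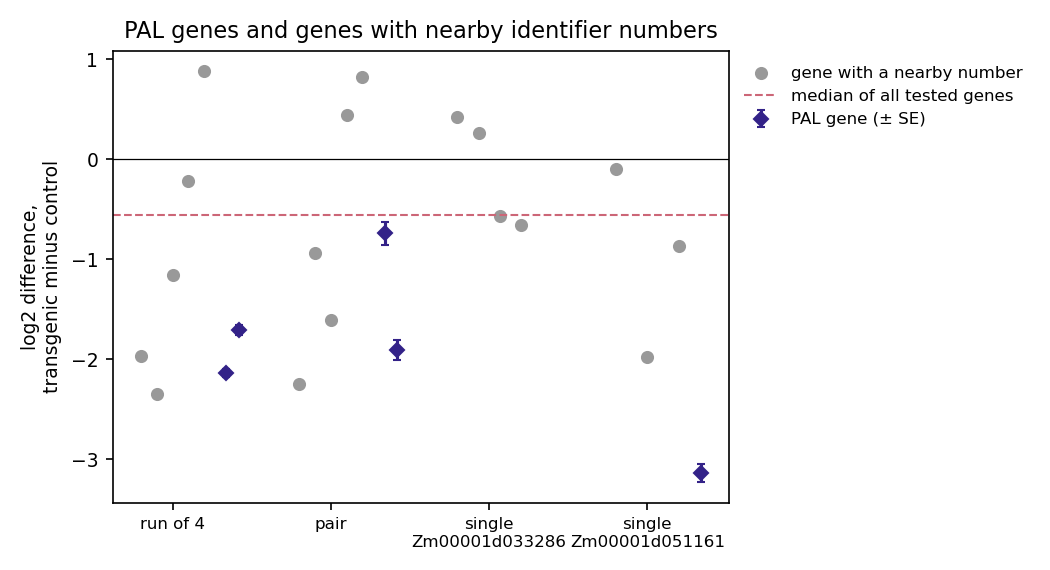
Log2 difference, transgenic minus control, of the tested PAL genes (diamonds with SE bars) and of tested genes with identifier numbers up to 5 away (grey points), by group of PAL genes; the dashed line is the median of all tested genes, -0.56. Neighbours of each group lie on both sides of the dashed line, whereas all 5 PAL genes lie below that line. The neighbours of Zm00001d051161 all lie below 0, and those of the other groups lie on both sides of 0.

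The genes whose profile over the 6 libraries was most like the summed PAL level carry no name here. Zm00001d010428 stood at 67.26, 65.16 and 63.97 FPKM in control leaves, against 14.03, 14.19 and 14.33 FPKM in transgenic leaves. Its log2 difference was -2.13 ± 0.04 (SE). Zm00001d013725 stood at 200.6, 189.0 and 190.4 FPKM in control leaves, against 22.93, 22.83 and 23.30 FPKM in transgenic leaves. Its log2 difference was -3.02 ± 0.03 (SE). After scaling the log2 differences were -1.47 and -2.35. Both genes were picked for following a level that differs between the groups, so their differences follow from the choice and are given without a test. Likeness was ranked by the correlation of log2(FPKM + 1) over the 6 libraries. With 2 groups that do not overlap such a correlation mostly follows the difference between them, and 6213 of 22939 other genes reached at least 0.99, so the coefficients are not given.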

How the data were processed

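Values were used as deposited: FPKM with 2 decimals, in a separate table for each library. DESeq2, with no role, and the mouse build mm10 are named in the submitters' processing notes, although the identifiers belong to maize. The sources used here do not name an aligner, counting program, strand setting or maize build. FPKM gives no read numbers, so no counting intervals were computed. For genes at 0 in some library, the commonest ratio of low values (0.4 to 3 FPKM) in control replicate 1 to those in the other libraries was between 1.00 and 1.03, from 6 to 35 genes each, which does not give the depth.

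Testing required a mean of 0.5 FPKM over all libraries and was done on log2(FPKM + 1) with limma 3.58.1 (R 4.3.3), fitting group alone, with variance moderated along intensity and two-sided p-values adjusted by Benjamini-Hochberg over all 22944 genes; this scale understates changes of low genes. Median-of-ratios factors were computed on the FPKM. The fit was tested on simulated data in which few genes changed and the groups had no overall shift, unlike the data here. Deviations of same-numbered libraries correlated at 0.002, -0.05 and 0.002, so libraries were not treated as paired. Other steps used scipy 1.17.1, pandas 2.3.3 and Python 3.11.15, and plots matplotlib 3.10.9.

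The members and lists were chosen with earlier results of these data known, and the fit relative to Zm00001d017274 and the comparison of ratios were added after the values were seen. All 8 members are named, with identifiers between members of a run and the 2 genes most like the summed level. Of 44146 Zm00001d identifiers the reference table (Zm-B73-REFERENCE-NAM-5.0) matched 0, so other phenylpropanoid genes and leaf markers, listed by symbol, were not analysed here.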

Additional observations from a re-analysis of the deposited data

How the results depend on the processing

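The number of PAL genes lower past the threshold was 5 under every alternative except a minimum mean of 2 FPKM, which left 4 genes to test, all 4 lower; it was 5 with the replicate block, with an adjusted p of 0.01 and with any library left out. No alternative called a PAL gene higher. The 5 tested genes kept their direction and call in all 64 values under alternatives. Relative to its size (-0.74), the value of Zm00001d003015 varied most, from -1.17 with a pseudocount of 0.1 to -0.34 with median-of-ratios scaling. The summed PAL level, transgenic over control, was 0.211 as deposited, 0.339 with median-of-ratios scaling, 0.174 with the same total FPKM and 0.209 to 0.214 with single libraries left out. The share held by adjacent genes was 14.3 percentage points higher in the transgenic libraries. It was 22.2 points higher without Zm00001d017274, and 13.5 to 15.4 points higher with single libraries left out. Relative to Zm00001d017274, the difference of Zm00001d003016 (0.23) was -0.40 with a pseudocount of 0.1 (adjusted p = 0.052). It ranged from 0.13 to 0.31 with single libraries left out and passed the threshold without control replicate 2 (adjusted p = 0.049). Its sign thus depended on the pseudocount, and why leaving out that library moved the call was not tested. The other relative differences kept direction and call, also with the replicate block; these alternatives were chosen after seeing the data. Values of Zm00001d017276, Zm00001d017279 and Zm00001d033286 are limited by unknown depth.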
